A study of Mus musculus with 24 samples.

Results

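A set of 9 genes of cell adhesion were followed in mouse macrophages labelled wild type or Tet2 knockout: Cadm1, Alcam, Icam1, Vcam1, Pecam1, Bcam, Cdh1, Fn1 and Cd44. They are 9 of the 23307 gene symbols in each deposited expression table, taken by symbol, and all 9 were found in both tables. The genes were chosen on values of these tables: Cadm1 for its lower level in labelled knockout cultures, Fn1 for its rise with interleukin 4 (IL4), and Cdh1 from the same culture table. Bcam is treated in the same way, although whether it was so chosen is not known. For these 4 genes the culture values are therefore given as a description without a test. In the cultures, only Alcam, Icam1, Pecam1 and Cd44 carry p-values, and Pecam1 only between genotypes.

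Adhesion molecules hold cells to each other and to the surrounding matrix. Members of the immunoglobulin superfamily, among them Cadm1, Alcam, Icam1, Vcam1, Pecam1 and Bcam, bind one another or integrins across cell contacts. Cadherins such as Cdh1 (E-cadherin) join like cells through calcium-dependent contacts anchored by catenins, and Cdh1 is a known marker of alternatively activated mouse macrophages. Fibronectin, the product of Fn1, is a secreted matrix protein bound by integrins, and Cd44 is the main receptor for hyaluronan.

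Bone marrow-derived macrophages (BMDM) were grown for 7 days from marrow of C57BL/6 mice labelled wild type or Tet2 knockout. They were then left without IL4 (0 h) or given 20 ng/ml IL4, a cytokine that drives alternative activation, for 10 or 24 h, with 2 libraries in each of the 6 groups. The labels give no age or sex for these donors and do not say which allele removes Tet2. Tumour-associated macrophages (TAM) were cells positive for CD11b and F4/80, sorted 4 weeks after YUMM1.7 cells had been injected under the skin. The hosts were C57BL/6J males, 6 to 8 weeks old. YUMM1.7 is a mouse melanoma line. All 8 TAM animals carried floxed Tet2 (Tet2 fl/fl): the 4 wild-type animals had no Cre (LysMcre wt/wt, libraries 1, 2, 7 and 8) and the 4 labelled knockout animals had 1 Cre allele (LysMcre +/wt, libraries 3 to 6), which acts in myeloid cells. Values are FPKM, in which fragments are divided by transcript length and by the total of the library, so levels can be set side by side between genes of 1 table. Differences are differences of mean log2(FPKM + 1) with their standard error (SE), a scale that understates changes of genes near 0. A gene that reached 1 FPKM in no library of one side of a comparison (all 0 h against all IL4 libraries, or all wild-type against all knockout libraries of a table) was tested only because of the other side, so its values are given for that comparison without a p and outside the counts.

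Tet2 itself passed in no comparison of the labelled groups. It was at 4.02 to 11.3 FPKM in the 12 BMDM libraries and 7.75 to 19.0 FPKM in the 8 TAM libraries, and its adjusted p between genotypes lay between 0.418 and 0.837 over the 4 genotype comparisons (limma). At 10 h of IL4 Tet2 stood at 8.74 and 8.81 FPKM in wild type and 7.22 and 8.19 in the knockout. At 24 h it stood at 9.38 and 9.82 against 11.3 and 10.3, so the order turned, without overlap at either time. A value for the whole gene does not show whether part of it was deleted, so "knockout" is used below as the label given. Of 10 macrophage markers, all were detected in every library, from Cd163 at 2.71 to 5.21 FPKM to Lyz2 at 6054 to 18003 FPKM in BMDM, and in TAM Cd163 went down to 0.590 FPKM. Their sum did not overlap between genotypes in BMDM with IL4: it was 10896 to 10975 FPKM in wild type and 8696 to 9366 in the knockout at 10 h, and 10222 to 11823 against 7865 to 7907 at 24 h. Lyz2 alone made up most of these sums. At 0 h, 10 h and 24 h, 1, 4 and 3 of the 10 were called lower in the knockout and 0 higher (limma). Of all genes that reached 1 FPKM in both genotypes, 2.23%, 2.30% and 6.86% were called in either direction. Depth is known only as a ratio to library 1 of wild type in its table, read from the steps between low values: 0.947 to 1.31 in BMDM and 0.401 to 1.08 in TAM. Wild-type TAM library 8 stood apart, with correlations of log2 values to the other TAM libraries of 0.829 to 0.899. Its summed level of 9 fibroblast markers was 250 FPKM against 11.3 to 29.3 in the other 7 libraries. Libraries 1 to 4 of the TAM held more neutrophil marker RNA (5653 to 17907 FPKM over 7 genes) than libraries 5 to 8 (918 to 1562). S100a8 (488 to 10588 FPKM) and S100a9 (336 to 6795) made up most of these sums, while Ngp reached at most 419 FPKM. Which cells held this RNA was not tested. The fibroblast level of library 8 and this split by library number are given again beside the genes they touch.

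Promoter sequences show what surrounds the starts of the genes whose IL4 responses are compared below. RefSeq (mouse build GRCm38.p6) gave an entry for 4 of the 9 genes, each 300 bases long, from 250 before to 50 after the annotated start. The sequences are shown because the 4 genes differ in response to IL4: Cd44 and Bcam were higher with it, Alcam was lower, and Icam1 did not pass the test in any IL4 comparison. Capitals mark matches on either strand to TTCNNNNGAA (the spacing known for STAT6, the factor that IL4 activates), TTCNNNGAA (the spacing of other STAT factors). They also mark the TATA box, searched as TATAAA. The last motif searched is the GC box, spelled GGGCGG. No match of 1 motif overlapped a match of another.

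The promoter of Cd44 lies at chr2:102901616-102901915 on the minus strand, that of Bcam at chr7:19770483-19770782 (minus), that of Alcam at chr16:52453032-52453331 (minus) and that of Icam1 at chr9:21015690-21015989 (plus). They are written 5′ to 3′ along the gene's strand.
Cd44: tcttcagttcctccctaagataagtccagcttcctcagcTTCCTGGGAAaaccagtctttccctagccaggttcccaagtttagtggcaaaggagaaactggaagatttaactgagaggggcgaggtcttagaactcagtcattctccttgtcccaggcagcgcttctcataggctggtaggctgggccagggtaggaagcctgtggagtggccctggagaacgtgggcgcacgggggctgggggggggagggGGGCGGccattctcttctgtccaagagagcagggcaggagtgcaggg
Bcam: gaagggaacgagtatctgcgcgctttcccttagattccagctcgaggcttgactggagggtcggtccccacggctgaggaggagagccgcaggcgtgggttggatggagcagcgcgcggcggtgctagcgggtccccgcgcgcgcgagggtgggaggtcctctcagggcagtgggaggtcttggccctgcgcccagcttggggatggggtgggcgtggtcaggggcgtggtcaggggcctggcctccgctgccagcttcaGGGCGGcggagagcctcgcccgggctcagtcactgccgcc
Alcam: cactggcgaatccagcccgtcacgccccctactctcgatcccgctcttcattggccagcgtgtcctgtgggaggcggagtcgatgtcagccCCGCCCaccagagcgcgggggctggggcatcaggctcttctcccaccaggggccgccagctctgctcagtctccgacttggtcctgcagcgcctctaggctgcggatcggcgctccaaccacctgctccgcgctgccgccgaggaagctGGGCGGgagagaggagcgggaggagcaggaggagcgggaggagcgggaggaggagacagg
Icam1: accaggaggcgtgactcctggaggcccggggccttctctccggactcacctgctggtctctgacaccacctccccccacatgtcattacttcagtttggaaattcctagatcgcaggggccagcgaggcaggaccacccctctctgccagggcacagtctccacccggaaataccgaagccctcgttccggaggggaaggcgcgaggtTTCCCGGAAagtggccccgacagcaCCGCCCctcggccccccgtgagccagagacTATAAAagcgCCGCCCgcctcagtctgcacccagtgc

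Of the 4 promoters, the one of Cd44 holds a match to the STAT6 spacing, TTCCTGGGAA, which begins at position −211 counted from the start. Such a match stands in 6.95% of the 32851 promoters of the table. Icam1 holds the shorter STAT spacing, TTCCCGGAA, which begins at −42 (8.3% of promoters hold one). It also holds a match to TATAAA (13.6%) that begins at position 14, inside the annotated transcript. Whether that match serves as a TATA box was not tested. All 4 hold at least 1 GC box, which 35.7% of promoters hold. The CpG pairs number 27 for Bcam, 25 for Alcam, 19 for Icam1 and 6 for Cd44, against a median of 7 over all promoters. These are matches of letters in a window of 300 bases, not binding data, and the windows of Bcam and Alcam hold neither STAT spacing.

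Cadm1 (SynCAM1, Necl-2) binds itself and, on lymphocytes, the receptor Crtam. In untreated BMDM it stood at 36.5 and 35.3 FPKM in the wild-type libraries and at 7.88 and 7.44 in the labelled knockout libraries. At 10 h of IL4 the wild type had 17.5 and 18.1 FPKM and the knockout 4.13 and 5.40. At 24 h these were 28.5 and 25.6 FPKM against 8.16 and 8.34. The genotypes did not overlap at any time, and the highest knockout library was below the lowest wild-type library of any time. Knockout means were 4.69-fold lower at 0 h, 3.74-fold lower at 10 h and 3.28-fold lower at 24 h (log2 differences of −2.09, −1.71 and −1.60, each ± 0.11). These values chose the gene and are not tested.

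The IL4 course of Cadm1 dipped and partly returned. In wild type the log2 difference from 0 h was −0.97 at 10 h and −0.40 at 24 h, and in the knockout it was −0.60 and 0.09 (each ± 0.11). At 24 h the wild-type libraries were thus below their 0 h level while both knockout libraries were slightly above theirs. The difference between genotypes narrowed with IL4, by 0.38 ± 0.16 at 10 h and 0.49 ± 0.16 at 24 h on the log2 scale, given without a test.

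Alcam (CD166), which binds itself and the T cell receptor Cd6, was lower with IL4. In wild-type BMDM it went from 29.1 and 29.3 FPKM at 0 h to 12.3 and 11.4 at 10 h and 20.4 and 19.7 at 24 h. In the knockout it went from 39.0 and 38.2 FPKM to 15.2 and 20.2 and then to 29.2 and 32.9. No library at 10 h reached any 0 h library of its genotype. Alcam fell in wild type at 10 h (log2 difference −1.24 ± 0.12, limma, adjusted p = 2.86e-05) and at 24 h (−0.52 ± 0.12, adjusted p = 0.00537). In the knockout it fell at 10 h (−1.10 ± 0.12, adjusted p = 6.48e-05), and at 24 h it had a difference of −0.31 ± 0.12 that did not pass (adjusted p = 0.0671). The knockout difference at 24 h passed under median-of-ratios scaling (0.0228) and quantile normalization (0.0107), and the wild-type call at 24 h was lost with only the 4 libraries compared (0.0562).

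Alcam thus had the same early low as Cadm1 but the opposite order of genotypes. Both knockout libraries were above both wild-type libraries at each time, with mean ratios of 1.32 at 0 h, 1.49 at 10 h and 1.55 at 24 h. At 24 h the difference passed (0.61 ± 0.12, limma, adjusted p = 0.0184), while at 0 h and 10 h it did not (adjusted p = 0.161 and 0.0507). Without knockout library 1 of 10 h, the lower of the pair, the difference at 10 h was 0.72 (adjusted p = 0.0218).

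Icam1, a ligand of the integrins LFA-1 and Mac-1 that inflammatory signals induce, passed in no BMDM comparison. It was at 20.2 and 18.2 FPKM in wild type and 21.7 and 19.7 in the knockout at 0 h. At 10 h it was at 21.8 and 24.9 against 25.9 and 24.4 FPKM, and at 24 h at 15.7 and 21.5 against 20.9 and 18.9. All 12 libraries lay between 15.7 and 25.9 FPKM, and the genotypes overlapped at each time. Fitted with only the 4 libraries compared, the knockout's difference at 10 h of IL4 (0.27) did pass (limma, adjusted p = 0.0182). The log2 difference between genotypes was 0.10 at each time, and its interval (95%) at 24 h ran from −0.21 to 0.41, which contains 0.

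Vcam1, the ligand of the integrin of Itga4 and Itgb1, was too low in BMDM to be tested: it lay between 0.0797 and 0.792 FPKM and reached 1 FPKM in no library. The wild-type libraries held 0.226 and 0.0797 FPKM at 0 h, 0.372 and 0.438 at 10 h and 0.620 and 0.531 at 24 h. The knockout libraries held 0.792 and 0.428, then 0.585 and 0.669, and then 0.223 and 0.393. The knockout values were above the wild-type values at 0 h and 10 h and below them at 24 h.

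Pecam1 (CD31) binds itself at endothelial junctions and on leukocytes. It was near 0 without IL4, at 0.124 and 0.0873 FPKM in wild type and 0.200 and 0.199 in the knockout, and passed the filter only through the IL4 groups. At 10 h it reached 2.83 and 2.79 FPKM in wild type and 4.02 and 4.46 in the knockout. At 24 h it stood at 2.25 and 2.27 against 3.53 and 4.65. Every IL4 library was above every library without IL4. The log2 differences from 0 h, given as a description, were 1.79 and 1.56 at 10 and 24 h in wild type and 2.13 and 2.08 in the knockout, each ± 0.11. As ratios of means the rises were not larger in the knockout: 26.6-fold and 21.4-fold in wild type, 21.2-fold and 20.5-fold in the knockout.

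Between genotypes Pecam1 was higher in both knockout libraries at each time. The difference passed at 24 h (0.64 ± 0.11, limma, adjusted p = 0.00928) and not at 10 h (0.46 ± 0.11, 0.0597) or 0 h (0.12 ± 0.11, 0.652). Knockout means were 1.89, 1.51 and 1.81 times the wild-type means at 0, 10 and 24 h, so the ratio did not widen with IL4. A list of 10 endothelial markers summed to 2.92 to 5.07 FPKM at 0 h and 16.6 to 25.6 FPKM with IL4. Among them Flt1 reached 25.0 FPKM, whereas Cdh5 stayed at or below 0.0620 FPKM and Tek and Cldn5 were each at 0 in 6 of 12 libraries. Of the 10 endothelial markers 1 reached 1 FPKM both with and without IL4, and it was lower with IL4 in each of the 4 IL4 comparisons (limma).

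Bcam (Lutheran) is a receptor for laminin with an alpha 5 chain. It was at or near 0 without IL4, with 0 and 0.0665 FPKM in wild type and 0.0639 and 0.0247 in the knockout. At 10 h the wild type had 1.25 and 0.893 FPKM and the knockout 0.205 and 0.323. At 24 h they had 2.58 and 3.62 against 0.495 and 0.364. Both wild-type libraries were above both knockout libraries at each IL4 time, and the means were 4.05-fold and 7.22-fold apart. Bcam passed the filter only through the wild-type IL4 libraries. The log2 differences between genotypes, −0.71 ± 0.14 at 10 h and −1.51 ± 0.14 at 24 h, are given as a description.

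Cdh1 rose from the floor in both genotypes and further in the knockout. At 0 h its 4 libraries held 0 and 0.0242 FPKM (wild type) and 0.0108 and 0 (knockout). At 10 h they held 0.468 and 0.357 FPKM in wild type and 1.26 and 1.15 in the knockout. At 24 h they held 0.696 and 0.969 against 1.33 and 1.59. The knockout was above the wild type at both IL4 times without overlap, by a mean ratio of 2.93 at 10 h and 1.75 at 24 h, and only the knockout groups brought it over 1 FPKM. The log2 differences between genotypes were −0.01, 0.64 and 0.42 at 0, 10 and 24 h (each ± 0.11), given as a description.

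Markers of epithelial cells, where Cdh1 is best known, were near 0. The 8 epithelial and keratinocyte markers summed to at most 0.256 FPKM in any BMDM library, and Epcam and Krt8 were each at 0 in 11 of 12. Cdh1 and Bcam, both low at 0 h and higher with IL4, thus stood in opposite order by genotype.

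On the log2(FPKM + 1) scale Fn1 had the largest IL4 differences at 24 h of the 8 genes that could be fitted in BMDM. At 10 h Pecam1 had a larger one in both genotypes, and Cdh1 also did in the knockout. The order at 24 h depended on the scale. With 0.1 in place of 1 added to FPKM, Fn1 was still largest in wild type (5.19). In the knockout Cdh1 (3.88) and Pecam1 (3.79) were then above Fn1 (3.49). The wild-type libraries held 0.769 and 1.15 FPKM at 0 h, 5.29 and 5.57 at 10 h and 33.2 and 43.3 at 24 h. The knockout libraries held 2.33 and 2.08, then 5.33 and 5.24, and then 25.4 and 26.1. The knockout was thus above the wild type at 0 h, level with it at 10 h and below it at 24 h. From 0 h to 24 h the mean was 39.9-fold higher in wild type and 11.7-fold higher in the knockout (log2 differences of 4.32 and 3.06, each ± 0.13). The response of the knockout was smaller by 1.26 ± 0.19 on the log2 scale at 24 h, given without a test. The genotypes differed by −0.54 ± 0.13 at 24 h, and by −0.35 without wild-type library 2.

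Fibroblasts also make fibronectin, and fibroblast markers differed by genotype in the cultures. A list of 9 summed to 21.1 and 23.1 FPKM in the knockout against 4.59 and 4.94 in wild type at 0 h, to 19.7 and 20.6 against 4.41 and 5.02 at 10 h, and to 9.35 and 9.50 against 2.43 and 2.49 at 24 h. The 2 markers that reached 1 FPKM in both genotypes were higher in the knockout at each time (limma). The sums fell from 0 h to 24 h in both genotypes while Fn1 rose. The part of these markers, or of the macrophage markers above, in the genotype differences of Fn1 or the other 8 genes was not tested, and fewer cells of a type cannot be told apart from less RNA per cell in such bulk libraries.

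Cd44 was the highest member in IL4-treated BMDM. It stood at 20.4 and 25.0 FPKM in wild type and 24.9 and 27.0 in the knockout at 0 h. With IL4 the wild type had 43.2 and 43.5 FPKM at 10 h and 39.6 and 45.3 at 24 h, and the knockout had 46.4 and 56.4 and then 64.2 and 65.6. It rose in wild type at 10 h (log2 difference 0.91 ± 0.13, limma, adjusted p = 0.000271) and 24 h (0.88 ± 0.13, 0.000274). It rose in the knockout by 0.95 ± 0.13 (0.000204) and 1.29 ± 0.13 (1.88e-05). The genotypes overlapped at 0 h and were apart at 24 h, where the knockout was higher by 0.60 ± 0.13 (limma, adjusted p = 0.0203).

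**Figure D1:**
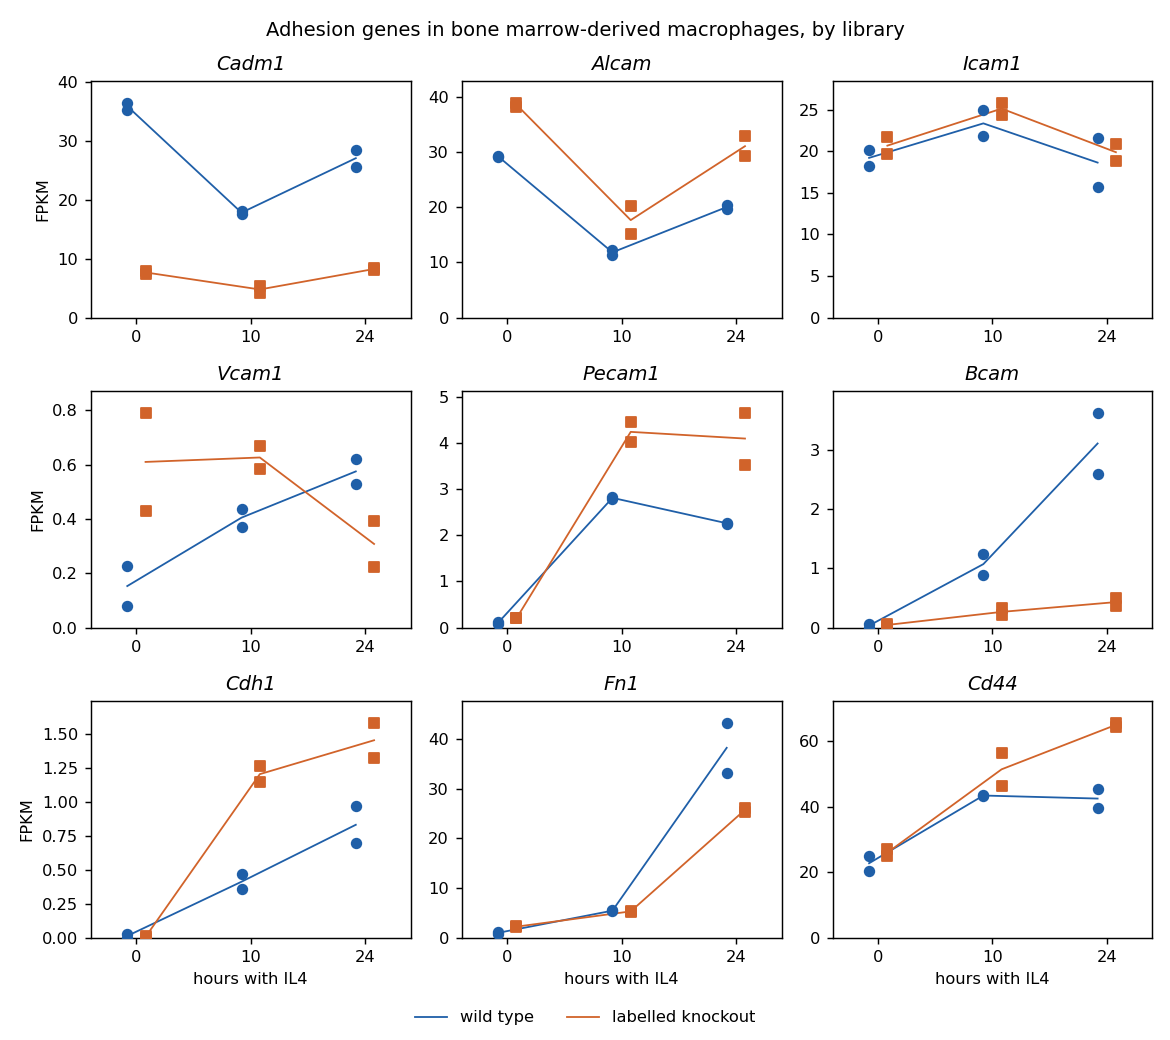
FPKM of the 9 genes (vertical axes, starting at 0, with a scale for each gene) against hours with IL4; circles and squares are the 2 wild-type and 2 labelled knockout libraries of each time, and lines join their means. Cadm1 was lower and Alcam and Pecam1 were higher in the knockout at each time, and the order of Fn1 and Vcam1 turned between 0 h and 24 h.

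Counted over Alcam, Cd44 and Icam1, the 3 genes whose IL4 differences carry a p, Cd44 (higher) and Alcam (lower) passed in wild type after 10 h of IL4 and again after 24 h, so 2 of 3 each time, where 42.4% and 50.0% of all 10510 tested genes passed. In the knockout 2 passed at 10 h and 1 at 24 h, against 38.8% and 43.7% of all genes. At such backgrounds these counts are not read as a result about adhesion genes. The median IL4 difference of the 3 genes was 0.27 at 10 h in both genotypes and at 24 h −0.06 in wild type and −0.05 in the knockout.

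Between genotypes, where Pecam1 is included, 0 of the 4 passed at 0 h, 0 at 10 h and 3 at 24 h (limma). All 3 were higher in the knockout. Over all genes tested, 2.70%, 2.84% and 7.43% passed. Over genes that reached 1 FPKM in both genotypes, the rule used for the members, 2.23%, 2.30% and 6.86% did. The members were chosen with earlier results of these data known, so the counts are a description and not a result about adhesion genes. At an unadjusted p under 0.05 the counts were 1, 2 and 3 (limma), against 14.5%, 10.6% and 25.3% of all genes. The backgrounds themselves rest on single libraries: with each library left out in turn, the number of genes called went from 284 to between 90 and 1383 at 0 h, from 299 to between 93 and 125 at 10 h, and from 781 to between 146 and 1251 at 24 h. The highest counts came without wild-type library 1 at 0 h and without wild-type library 1 at 24 h, and leaving out any other library of these 2 times lowered the count. The 3 calls at 24 h rest on few libraries. Fitted with only the 4 libraries compared, they were lost, at adjusted p = 0.111 for Alcam, 0.117 for Cd44 and 0.124 for Pecam1. Without knockout library 2 of 24 h the adjusted p was 0.142 for Alcam, 0.125 for Cd44 and 0.0802 for Pecam1. Without knockout library 1 it was 0.0685 for Alcam and 0.104 for Cd44, and leaving out wild-type library 2 (Alcam, 0.0570) or 1 (Cd44, 0.0523) also ended a call.

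The difference of the IL4 responses did not pass for Alcam, Cd44 or Icam1 at 10 h (background 0.0951%) or at 24 h (0.295%). Pecam1 was below 1 FPKM in every 0 h library, so its difference of responses is given without a p. The unadjusted p was under 0.05 only for Cd44 at 24 h (0.0435, limma), against 4.07% of all genes at 10 h and 18.2% at 24 h. With 1 library left out, the difference at 10 h ranged from −0.055 to 0.33 for Alcam and from −0.10 to 0.18 for Cd44. For Icam1 it ranged from −0.091 to 0.096 at 10 h and from −0.21 to 0.22 at 24 h. The genotype differences of Alcam and Cd44, called at 24 h and not at 0 h, were therefore not shown to differ between those times. For Pecam1 this was not tested. For Cd44 the difference of responses at 24 h was 0.41 ± 0.18 (limma, adjusted p = 0.261) and for Alcam 0.22 ± 0.17 (0.536). For Pecam1 it was 0.52 ± 0.16, given as a description. That of Pecam1, near 0 FPKM at 0 h, depended on the scale. With 0.1 in place of 1 added to FPKM it was 0.27 ± 0.25.

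**Figure D2:**
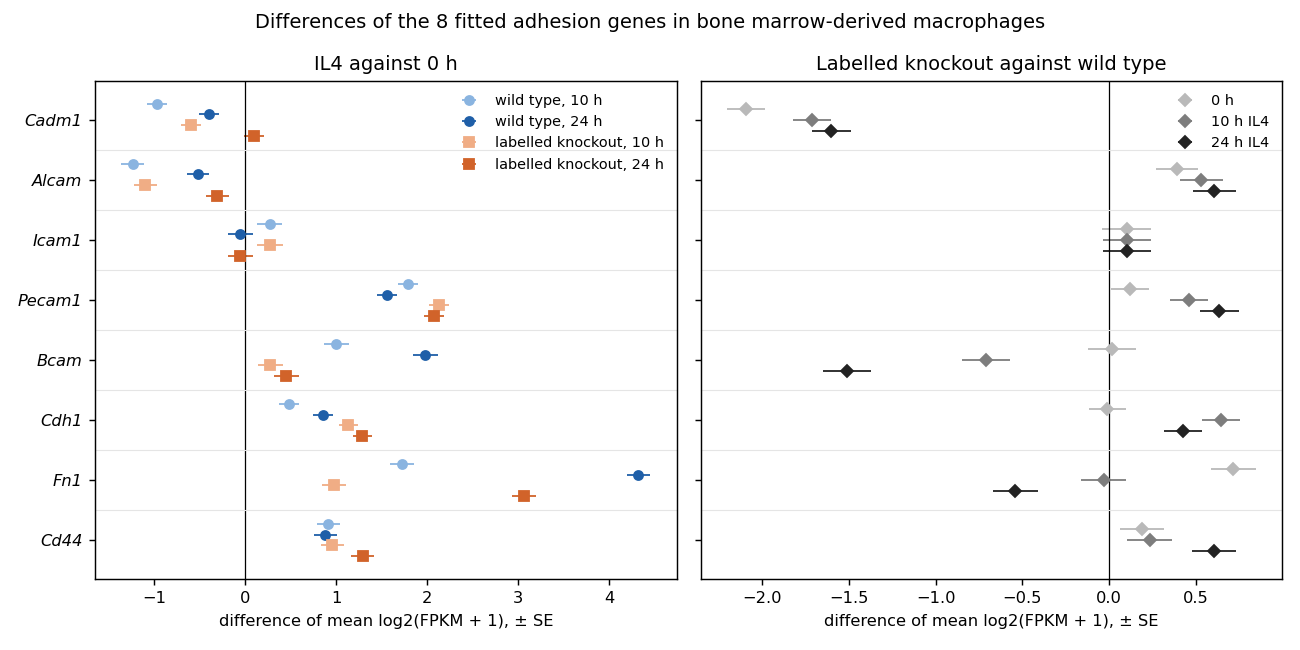
Differences of mean log2(FPKM + 1) with SE for the 8 genes that could be fitted (Vcam1 was too low): IL4 against 0 h in each genotype on the left, and the labelled knockout minus wild type by time on the right. Alcam and Cadm1 lie left of 0 at 10 h of IL4, and Pecam1, Fn1 and Cd44 lie right of it. On the right Cadm1 moves from −2.09 at 0 h to −1.60 at 24 h, while Bcam moves from 0.02 to −1.51.

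Genes with the pattern most like that of 3 members were sought by the root mean square difference of centred log2 values over the 12 BMDM libraries, 5 for each. Nearest to Cadm1 were 1700112E06Rik (0.40), Gm10677 (0.46), Abca9 (0.50), Slc15a2 (0.51) and Slc11a1 (0.53), where the median over all genes was 1.03. Of these, Slc11a1 (the NRAMP1 metal transporter of phagosomes) averaged 76.1 FPKM in wild type and 42.2 in the knockout at 0 h. Nearest to Cdh1 were Csf2rb (0.13), Gbp8 (0.15), Gm8221 (0.16), Tmem48 (0.16) and Gm7120 (0.17), with a median of 0.52. Csf2rb, the shared beta chain of the receptors for GM-CSF, IL3 and IL5, averaged 30.0 FPKM in wild type and 48.4 in the knockout at 10 h. Nearest to Fn1 were C3 (0.31), S100a4 (0.35), Chi3l4, Gpc1 and Ocstamp (each 0.41), with a median of 1.54. The complement gene C3 went from a mean of 5.11 FPKM at 0 h to 74.0 at 24 h in wild type and from 6.52 to 61.1 in the knockout. These distances are descriptions over libraries that share groups.

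Lists of related genes were followed beside the 9. At 24 h of IL4, 48.9% of the genes that reached 1 FPKM both with and without IL4 passed in wild type and 42.2% in the knockout. By list in wild type, 70.0% of the partner receptors passed, 62.5% of other immunoglobulin superfamily genes and 66.7% of cadherin genes. So did 70.0% of selectin and hyaluronan genes, 63.6% of matrix genes, 38.9% of actin linkers and 57.1% of sheddases. Their median differences were 0.01, 0.25, 0.01, −0.16, −0.09, 0.09 and 0.05 in that order, beside 0.05 over all such genes. With 6 to 18 genes a list, these shares are descriptions. Between genotypes at 24 h the medians were 0.22, −0.05, 0.15, 0.03, −0.01, 0.01 and 0.12, beside 0.04, and 2.23%, 2.30% and 6.86% of all genes that reached 1 FPKM in both genotypes passed at 0, 10 and 24 h.

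The receptors that bind the 9 products changed with IL4 in both directions. Of 19 partner receptor genes 12 were tested and 10 reached 1 FPKM both with and without IL4. Of these 10, 4 rose and 3 fell in wild type at 24 h. Itgb3, a chain of the vitronectin receptor, rose from a mean of 1.03 to 10.9 FPKM (limma, adjusted p = 1.03e-07). Itga9 fell from 2.82 to 0.325 FPKM (3.74e-07). In the knockout 4 rose and 3 fell at 24 h, with Itgb3 at 14.5 FPKM. Itgax (CD11c), tested only through its IL4 libraries, averaged 0.214 FPKM without IL4 and 73.2 after 24 h in wild type, and 0.284 and 65.9 in the knockout, given as a description.

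Between genotypes 1, 2 and 2 of 12 partner receptor genes passed at 0, 10 and 24 h, or 8.33%, 16.7% and 16.7%, counts of 1 or 2 genes beside the backgrounds just given. Itgb3 was higher in the knockout at 0 h (0.95 ± 0.12, limma, adjusted p = 0.00239) and 10 h (1.06 ± 0.12, 0.0011). Itga4, which with Itgb1 binds Vcam1 and fibronectin, was higher at 24 h (0.80 ± 0.14, 0.0105). Itgam, the Mac-1 chain that binds Icam1, was lower at 10 h (−0.53 ± 0.10, 0.0187) and 24 h (−0.39 ± 0.10, 0.0449).

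Among 28 other adhesion genes of the immunoglobulin superfamily 8 were tested, and 3 rose and 2 fell in wild type at 24 h. Icam2, a further ligand of LFA-1, rose by 1.65 ± 0.22 (limma, adjusted p = 0.000136), Bsg (basigin) rose by 1.02 ± 0.10 (1.56e-05), and Pvrl4 (nectin 4) fell by 1.20 ± 0.11 (1.27e-05). In the knockout 4 rose and 1 fell. Between genotypes 1 of the 8 passed at 0 h and 1 at 24 h: Siglec1 was lower in the knockout at 0 h (−0.91 ± 0.19, 0.0344), and Pvrl2 (nectin 2) at 24 h (−0.64 ± 0.16, 0.0340).

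Among 27 cadherins, catenins and repressors of Cdh1, 6 were tested. The protocadherin gene Pcdh7 rose with IL4 by 2.90 ± 0.14 in wild type (limma, adjusted p = 1.03e-07) and 2.66 ± 0.14 in the knockout (2.01e-07) at 24 h. Pcdh7 was also higher in the knockout at 0 h (0.86 ± 0.14, 0.00859), 10 h (0.72 ± 0.14, 0.0213) and 24 h (0.63 ± 0.14, 0.0266). Cdh11, a cadherin of mesenchymal cells, reached 1 FPKM only in knockout libraries, with means of 2.11, 1.38 and 0.527 FPKM at 0, 10 and 24 h against 0.511, 0.444 and 0.172 in wild type. Like the fibroblast markers given above, whose part was not tested, Cdh11 was higher in the knockout and lower at 24 h than at 0 h. Catenin genes were not among the genotype calls: Ctnnb1, which anchors E-cadherin to actin through Ctnna1, had a difference of 0.32 ± 0.12 at 0 h (0.252).

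Of 29 matrix glycoprotein genes beside Fn1, 11 were tested, and 3 rose and 4 fell in wild type at 24 h of IL4, against 2 and 5 in the knockout. Thbs1 (thrombospondin 1) fell by 1.57 ± 0.11 (limma, adjusted p = 2.15e-06) and 2.14 ± 0.11 (2.09e-07). Thbs1 was higher in the knockout at 10 h (0.99 ± 0.11, 0.00101) and lower at 24 h (−0.60 ± 0.11, 0.0144). Fbln2 (fibulin 2) and Tnc (tenascin C), both common products of fibroblasts, reached 1 FPKM only in knockout libraries. At 0 h Fbln2 averaged 0.836 FPKM in wild type against 3.16 in the knockout, and after 24 h of IL4 it averaged 0.135 against 0.477. Tnc averaged 0.284 FPKM in wild type against 1.24 at 0 h and 0.200 against 0.575 at 24 h.

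In the list of selectins, sialomucins and hyaluronan genes, 10 of 22 were tested, and 3 rose and 4 fell in wild type at 24 h. Stab1, a scavenger receptor, fell by 1.98 ± 0.17 (limma, adjusted p = 5.91e-06). Spp1 (osteopontin), a ligand of Cd44, fell by 1.10 ± 0.13 (5.44e-05) while Cd44 rose. Between genotypes 0, 1 and 2 of the 10 passed at 0, 10 and 24 h (4, 4 and 3 at an unadjusted p under 0.05, where 13.9%, 9.85% and 24.6% of all genes lay). Layn, a hyaluronan receptor, was higher in the knockout at 10 h (0.53 ± 0.11, 0.0291).

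Of 18 linkers of adhesion sites to actin, 7 passed in wild type and 8 in the knockout at 24 h of IL4. Of 7 sheddase genes, whose products cut adhesion molecules off the surface, 4 and 5 passed. Of all genes that reached 1 FPKM both with and without IL4, 48.9% passed in wild type and 42.2% in the knockout. The counts are therefore not read as a result about these lists. Between genotypes 0 of 7 sheddase genes passed at 0, 10 or 24 h (3, 3 and 0 at an unadjusted p under 0.05, limma), and 1, 2 and 1 of 17 actin linkers did.

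In sorted TAM the members had other levels, although libraries of the 2 kinds were made differently (after removal of ribosomal RNA in BMDM, from polyadenylated RNA in TAM) and were not compared by a test. In TAM 8 of the 9 could be tested between genotypes, and 0 passed, against 0.101% of 9897 genes (limma). At an unadjusted p under 0.05 there were 3, Cadm1, Fn1 and Pecam1, where 16.9% of all genes lay. An exact permutation test adjusted over all genes could call no member, since its smallest possible p of 0.0286 became 0.230 after adjustment. No conclusion is drawn from it. For Fn1 and Pecam1 the groups did not overlap, which held for 2 of 8 members and 12.4% of all genes tested.

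Fn1 was high in every wild-type TAM library, at 107, 136, 91.0 and 351 FPKM (libraries 1, 2, 7 and 8), and lower in the knockout at 62.0, 47.2, 25.7 and 18.1 (libraries 3 to 6). All 4 knockout libraries were below all 4 wild-type libraries. The log2 difference was −2.07 ± 0.50 (limma, adjusted p = 0.138). A two-sided exact permutation test of the gene alone gave p = 0.0286, the smallest that 4 against 4 libraries allow, and 0.230 after adjustment over all genes. The highest value came from library 8, where fibroblast markers were also highest. Without it the difference was −1.65 ± 0.40 (adjusted p = 0.144), and the groups still did not overlap.

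Pecam1 stood the other way, at 8.19, 6.22, 15.8 and 3.36 FPKM in wild type and 18.8, 17.0, 46.3 and 44.9 in the knockout. The log2 difference was 1.83 ± 0.47 (limma, adjusted p = 0.145), with p = 0.0286 in the exact permutation test of the gene alone. Endothelial markers overlapped between genotypes: their sum over 10 genes was 2.80 to 7.97 FPKM in wild type and 3.44 to 6.58 in the knockout. Library 5, the highest for Pecam1, had 3.44 FPKM of these markers, and Cldn5 was at 0 in all 8 libraries. Without wild-type library 8 the difference was 1.52 ± 0.44 (adjusted p = 0.190).

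Cadm1, lower in knockout BMDM, was not lower in knockout TAM. Wild-type libraries held 13.8, 6.36, 9.46 and 5.56 FPKM and knockout libraries 12.5, 12.8, 41.7 and 32.9. Libraries 5 and 6 were above all others, while libraries 3 and 4 lay below wild-type library 1. The difference of 1.29 ± 0.43 did not pass (limma, adjusted p = 0.214). Its interval (95%) ran from 0.30 to 2.28.

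Cd44 and Icam1 followed library number more than label. Cd44 stood at 148, 251, 67.3 and 45.7 FPKM in wild-type libraries 1, 2, 7 and 8 and at 241, 220, 113 and 98.1 in knockout libraries 3 to 6. Icam1 stood at 45.4, 101, 26.9 and 21.0 FPKM in wild type and 111, 134, 36.2 and 34.2 in the knockout. Both were higher in libraries 1 to 4, where neutrophil markers were also high, than in libraries 5 to 8. Their differences between genotypes were 0.58 ± 0.55 (limma, adjusted p = 0.592) and 0.69 ± 0.60 (0.565).

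With the log2 neutrophil marker level as a covariate, an alternative chosen after seeing the data, Cd44 passed (0.73 ± 0.12, limma, adjusted p = 0.0364). So 1 of the 8 members was called, while 264 of all 9897 genes tested were called in place of 10. Icam1 then had 0.85 ± 0.24 (0.0888), Pecam1 1.78 ± 0.47 (0.0775) and Fn1 −2.06 ± 0.52 (0.0736). Within libraries 1 to 4 and within libraries 5 to 8, Fn1 was lower and Pecam1 and Icam1 were higher in both knockout libraries than in both wild-type libraries. For Cd44 and Cadm1 this held within libraries 5 to 8 only. Whether neutrophil RNA sets the level of Cd44 or Icam1 was not tested.

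Vcam1, near 0 in BMDM, was among the highest members in TAM, at 218, 120, 265 and 142 FPKM in wild type and 81.0, 78.4, 192 and 156 in the knockout. The groups overlapped (−0.59 ± 0.37, limma, adjusted p = 0.425). Cdh1 stood at 1.32, 2.26, 3.80 and 1.12 FPKM in wild type and 1.53, 1.57, 4.96 and 3.01 in the knockout (0.25 ± 0.35, 0.730), with libraries 5 and 7 highest. Epithelial markers summed to 0.0956 to 1.50 FPKM in TAM.

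Alcam was the steadiest, between 6.95 and 9.62 FPKM in all 8 libraries (0.03 ± 0.14, limma, adjusted p = 0.924), and its sign turned under median-of-ratios scaling (−0.08) and quantile normalization (−0.05). Bcam was not tested: it was at 0.0909, 0.0670, 0.127 and 0 FPKM in wild type and at 0 in the knockout except for 0.466 in library 5, the shallowest. The highest library exceeded the lowest 19.4-fold for Fn1, 13.8-fold for Pecam1, 7.51-fold for Cadm1 and 1.38-fold for Alcam, where the median gene had 1.99-fold.

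**Figure D3:**
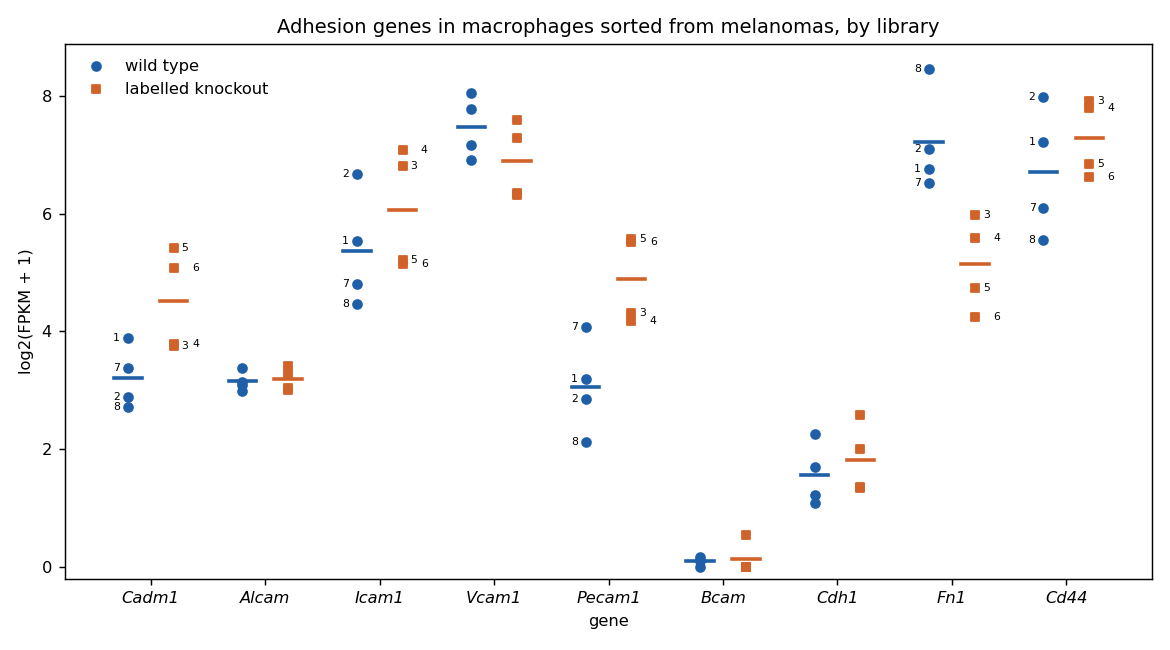
log2(FPKM + 1) of the 9 genes in the 8 TAM libraries; circles are wild type, squares labelled knockout, bars group means, and small numbers name libraries for 5 genes. Only Fn1 and Pecam1 have groups that do not overlap, in opposite directions.

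**Figure D4:**
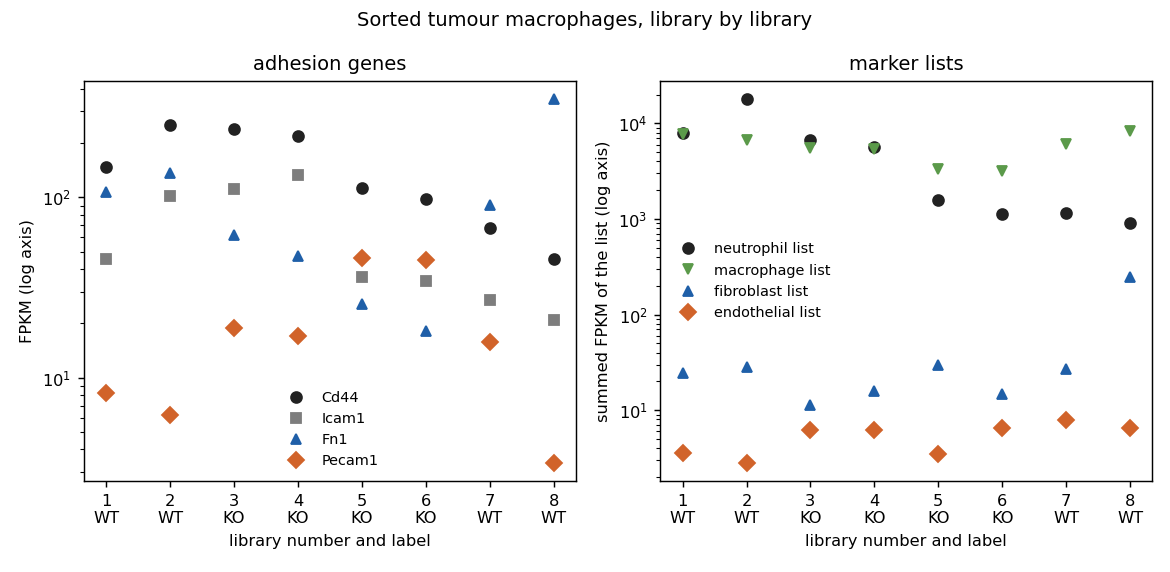
FPKM of Cd44, Icam1, Fn1 and Pecam1 (left) and summed FPKM of 4 marker lists (right) in TAM libraries 1 to 8, on log axes; WT is wild type and KO labelled knockout. Neutrophil markers, Cd44 and Icam1 are higher in libraries 1 to 4, and fibroblast markers and Fn1 are highest in library 8.

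The lists of related genes gave 0 calls in TAM, in all 7 lists (limma). At an unadjusted p under 0.05 there were 3 of 13 partner receptors, 2 of 11 immunoglobulin superfamily genes, 0 of 8 cadherin genes, 1 of 11 matrix genes, 1 of 11 selectin and hyaluronan genes, 4 of 17 actin linkers and 3 of 8 sheddases, where 16.7% of all genes that reached 1 FPKM in both genotypes lay. The median difference was 0.49 for partner receptors and −0.35 for matrix genes, beside 0.09 over all genes. The receptor genes with the smallest p were Itgax, with means of 62.5 FPKM in wild type and 197 in the knockout (adjusted p = 0.168), Itgb2 (157 and 249, 0.199) and Itgal (38.3 and 79.0, 0.203). Itgal and Itgb2 together form LFA-1, which binds Icam1. Macrophage markers summed to 6161 to 8263 FPKM in wild-type and 3209 to 5565 in knockout libraries, without overlap. Lyz2 had the widest range of them, 1091 to 5875 FPKM over the 8 libraries, followed by Cd14 (592 to 1838). The sum does not give the number of macrophages. Only the knockout animals carried LysMcre, so an effect of Cre itself cannot be told apart from the label. Of these 10 markers 0 were called in TAM (limma), and 12.4% of all genes tested did not overlap. The part of the markers in these differences was not tested.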

How the data were processed

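RNA was measured in 12 BMDM and 8 TAM libraries of the 24 samples; the 4 libraries of immunoprecipitated 5-hydroxymethylcytosine were not analysed here. The deposited tables hold FPKM that the authors made with TopHat on mouse build mm9 and Cuffdiff per the submitters' processing notes, which give no versions. The TAM table does not name its unit, and FPKM was taken for it from those notes. Gene models that overlap or lie antisense cannot be told apart, since the sources used here do not state strand. Without counts, absolute depth and counting error are unknown.

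Values were analysed as log2(FPKM + 1) with limma 3.58.1 in R 4.3.3, with moderation along an intensity trend. The 12 BMDM libraries were fitted as 6 groups and the 8 TAM libraries as 2. Genes needed 1 FPKM in 2 BMDM or 4 TAM libraries to be tested. Genes below 1 FPKM in every library of one side of a comparison stayed in the fit and the adjustment but got no p in the text and were left out of counts over members, gene lists and marker lists, a rule added after the values were seen. Benjamini-Hochberg adjustment covered every gene tested, with a threshold of 0.05. Of 2 repeated symbols the entry with the higher mean was kept. Figures used matplotlib 3.10.9.

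The members, the 7 gene lists and the 11 marker lists were chosen with earlier results of these data known. The text names the members, the genes with the smallest p of each list (up to 3 per comparison) and the 5 nearest patterns of Cadm1, Cdh1 and Fn1. Crtam, Ctnna1 and Itgb1 are named for their roles. Libraries of BMDM are called biological replicates by the design text; nothing in the labels says which share an animal, so p-values measure the spread between these libraries.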

Additional observations from a re-analysis of the deposited data

Results flagged for a closer look

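Bcam stood at 0.466 FPKM in knockout TAM library 5 and at 0 in the other 3 knockout libraries, so this library was far from its group. Of 18 groups of 4 libraries examined, 1 was marked in this way, and chance marks about 1 in 20 groups of continuous values. With 3 libraries at 0, any value above 0 in the remaining library is marked, so that rate does not apply to Bcam. Library 5 had the lowest relative depth of the TAM libraries (0.401).

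Several pairs of effects ran in opposite directions with no overlap of libraries in either, and the differences between them were not tested. Fn1 was higher in the knockout in untreated BMDM (0.72 on the log2(FPKM + 1) scale) and lower at 24 h of IL4 (−0.54) and in TAM (−2.07). Vcam1, below 1 FPKM throughout BMDM, was higher in the knockout at 0 h (0.48) and 10 h (0.21) and lower at 24 h (−0.27). Seen along IL4, Vcam1 at 24 h differed from 0 h by 0.45 in wild type and by −0.29 in the knockout. Cadm1 at 24 h of IL4 was below its 0 h level in wild type (−0.40) and slightly above it in the knockout (0.095).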

How the results depend on the processing

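Settings tried in turn were a pseudocount of 0.1, no filter, 1 FPKM in every library, median-of-ratios scaling, quantile normalization, only the libraries compared, a replicate block and each library left out. Over them, the counts of members passing in the cultures stayed the same or within 1.5 times, with these exceptions. At 24 h of IL4 in the knockout, 2 members passed in place of 1 under median-of-ratios scaling, quantile normalization and with only the libraries compared, and in wild type 1 in place of 2 with only those libraries. Between genotypes at 10 h, 2 passed under median-of-ratios scaling, 1 under quantile normalization and 1 with only the libraries compared, in place of 0. At 24 h, 0 passed with only those libraries, where 44 genes passed in place of 781. Leaving out 1 library gave 0 to 1 at 10 h and 0 to 2 at 24 h; a group left with 1 library was taken to vary like the others. In TAM the replicate block and the fit of only the libraries compared were not run, and 0 passed under the other settings. The exact permutation test also gave 0, but it could call none, since its smallest adjusted p was 0.230. With the neutrophil covariate 1 passed, and 264 genes were called in place of 10. Leaving out 1 library gave 1 to 22 genes, the most without wild-type library 8. Median-of-ratios scaling shifted the median gene by −0.127 in wild type at 10 h and −0.101 in TAM, and quantile normalization by −0.105 in wild type at 10 h.

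Signs turned only for differences that did not pass. Alcam in TAM was −0.075 under median-of-ratios scaling and −0.046 under quantile normalization, and −0.043 to 0.11 with 1 library left out. With 1 library left out, Icam1 ranged from −0.27 to 0.16 (wild type, 24 h), −0.125 to 0.017 (knockout, 24 h), −0.11 to 0.32 (genotypes, 24 h), −0.091 to 0.096 and −0.21 to 0.22 (difference of responses, 10 and 24 h). For the difference of responses at 10 h, Cd44 ranged from −0.10 to 0.18 and Alcam from −0.055 to 0.33. The cause was not tested.

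BMDM libraries share replicate numbers 1 and 2, but correlations of their deviations over 15 pairs of groups were −0.141 to 0.149, so the numbers were not taken as pairs. With the replicate block 3 members passed between genotypes at 24 h, as without it, and 619 genes in place of 781; no count of members changed.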
